A study of Homo sapiens with 6 samples.

Results

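Tight junction genes were followed in NCI-H292 cells with a knockdown of the long noncoding RNA SH3PXD2A-AS1. The genes were chosen by symbol, with earlier results of these data known: the claudins CLDN1, CLDN3, CLDN4, CLDN7 and CLDN12, with OCLN, TJP1, F11R and CGN. All 9 had a single row among the 60027 genes of the deposited table, and all 9 were tested. NCI-H292 is an established human cell line grown out of a pulmonary mucoepidermoid carcinoma. The series has 3 libraries of poly(A)-selected RNA from cells with the SH3PXD2A-AS1 knockdown and 3 from negative control cells of the same line. The labels name neither the knockdown reagent nor separate cultures for the libraries of each group, so each p-value covers no more than the scatter of these 6 libraries, part or all of which may be technical. The series title places the study in cell cycle progression and proliferation, and the comparison here asks how tight junction genes differed between the groups.

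A tight junction is a belt of strands that seals the space between neighbouring epithelial cells near their apical side. Claudins are membrane proteins that form the strands and, by their mix, set which ions and solutes pass between the cells. Occludin, encoded by OCLN, and the junctional adhesion molecule JAM-A, encoded by F11R, sit in the membrane beside them, while the scaffold protein zonula occludens, encoded by TJP1, and cingulin, encoded by CGN, join the strands to actin and myosin underneath. In lung cancers of epithelial type, claudins are among the proteins that mark an epithelial state.

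Promoter sequence from RefSeq on GRCh38.p14 is shown for CLDN4, CLDN7 and CGN, which rose in knockdown cells, and for CLDN3, the neighbour of CLDN4 on chromosome 7, which did not pass the test. Entries were found for 8 of the 9 genes. The 250 bases before each RefSeq start were searched for 6 motifs on both strands. They were the E-box, which SNAI1 and its relatives bind (CACCTG), the GC box of KLF and SP factors (GGGCGG), the TATA box of many regulated genes (TATAAA), the site of AP-1 factors such as FOS and JUN (TGANTCA), the site of Grainyhead factors such as GRHL3 (AACCNGTT), and the core of an interferon response element (GAAANNGAA). Capitals mark the matches, and each line runs 5′ to 3′ on the strand of the gene. The printed CLDN7 and CGN windows lie inside the annotated spans of their genes, in stretches free of annotated exons. For CLDN4 only the surroundings of its 2 AP-1 matches are printed, which start 242 and 161 bases before the RefSeq start, because longer annotated transcripts of the gene cover that window.
CLDN4, first AP-1 match, chr7:73830746-73830770, plus strand: ctgggctgTGATTCAgtgtctgtct
CLDN4, second AP-1 match, chr7:73830825-73830851, plus strand: gactggatagTGACTCAgggacccggg
CLDN7, chr17:7263214-7263463, minus strand: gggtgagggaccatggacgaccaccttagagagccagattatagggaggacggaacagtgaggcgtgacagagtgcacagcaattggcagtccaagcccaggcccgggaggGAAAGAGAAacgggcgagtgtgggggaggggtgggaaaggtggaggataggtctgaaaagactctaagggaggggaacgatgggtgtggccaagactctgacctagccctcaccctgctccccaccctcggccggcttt
CGN, chr1:151511137-151511386, plus strand: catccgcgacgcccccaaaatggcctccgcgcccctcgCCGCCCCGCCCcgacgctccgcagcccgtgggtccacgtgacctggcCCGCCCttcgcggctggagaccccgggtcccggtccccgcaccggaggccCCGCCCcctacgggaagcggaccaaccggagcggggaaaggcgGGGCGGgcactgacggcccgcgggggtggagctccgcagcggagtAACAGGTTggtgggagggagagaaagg
CLDN3, chr7:73770271-73770520, minus strand: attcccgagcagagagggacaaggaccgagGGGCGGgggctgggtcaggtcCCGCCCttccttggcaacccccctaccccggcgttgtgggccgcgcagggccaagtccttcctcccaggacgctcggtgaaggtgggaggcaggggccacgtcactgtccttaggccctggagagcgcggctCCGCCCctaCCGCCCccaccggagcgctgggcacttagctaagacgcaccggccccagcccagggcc

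Of the 35116 RefSeq windows of this length, 6.6% held an AP-1 match and 0.4% held at least 2, as the CLDN4 window did. The CLDN7 window shown, before the first of its 2 listed starts, held 1 match to the interferon response core, as did the CLDN12 window, and 6.9% of all windows held that motif. CGN held 5 GC boxes, 2 of which overlap in the first capital run, and 1 Grainyhead match, which 1.5% of windows held. CLDN3 held 4 GC boxes, a motif found in 42.6% of windows. The CLDN4 window also held 1 GC box. No E-box or TATA box was found in the windows of CLDN4, CLDN3 and CGN or in the CLDN7 window shown. Of all windows, 17.5% held an E-box and 10.7% a TATA box. The window before the other start of CLDN7 held 4 E-boxes. Among genes whose windows are not printed, OCLN held 1 E-box before each of its 2 listed starts. TJP1 held 1 before its first listed start, and CLDN1 and CLDN12 held none. A match is a description of the letters and shows no binding.

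SH3PXD2A-AS1 itself was low, at 0.37, 0.68 and 0.44 TPM in knockdown libraries and 0.96, 0.75 and 0.51 TPM in control libraries. The groups overlapped, and without the filter on low values limma gave a log2 fold change of −0.21 with an SE of 0.14 and an adjusted p of 0.517. The deposited levels therefore gave no clear check of the knockdown label, and directions given here rest on that label.

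CLDN4, CGN, OCLN, CLDN7 and CLDN1 were higher in knockdown cells, and CLDN4 had the largest change of the 9. Genes with a mean level of at least 1 TPM (transcript level scaled by gene length and by library total) were tested with limma on log2(TPM + 1), with p-values adjusted by the Benjamini-Hochberg method over all 15755 genes. At an adjusted p under 0.05, 5 of the 9 rose and 0 fell, against 11.3% of all genes tested that rose and 3.47% that fell. Among the 2826 genes with a mean of at least 50 TPM, 21.2% rose and 9.13% fell. In 6 of the 9 genes every knockdown library lay above every control library, which held for 26.8% of all genes tested. The median log2 fold change of the 9 was 0.40, and that of all genes tested 0.08. The 9 genes, and the lists that follow, were chosen with earlier results of these data known. Their shares and medians beside those of all genes are therefore a description and not a test. In bulk RNA, a change in the number of cells that express a gene and a change in RNA per cell cannot be told apart.

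**Figure D1:**
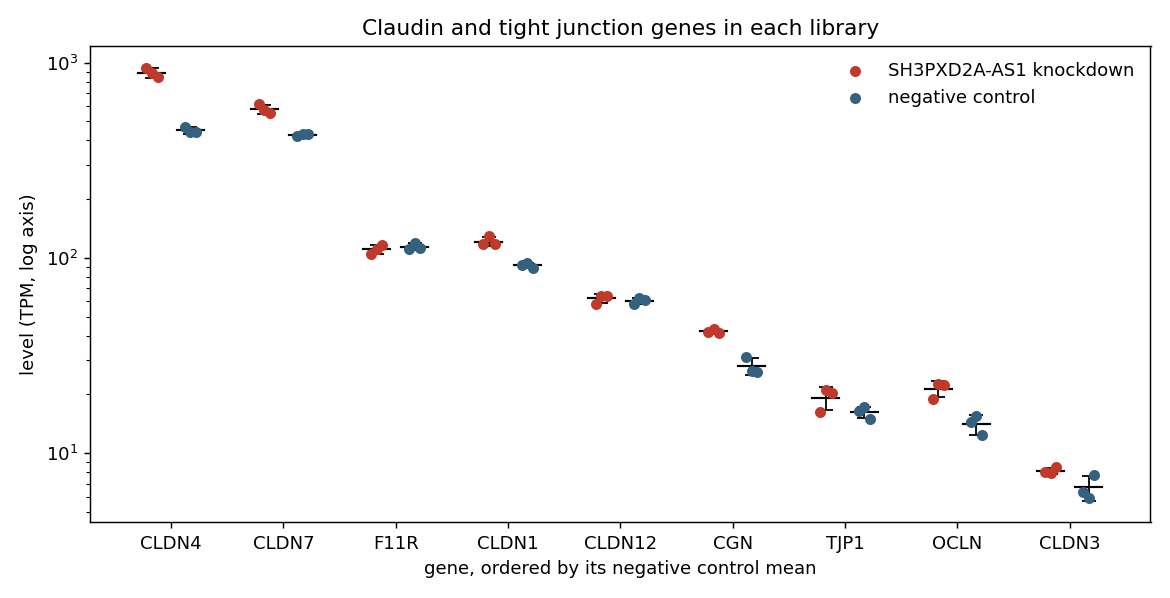
Level of each gene in TPM on a log axis, in the 3 knockdown libraries and, to their right, the 3 negative control libraries. Points are libraries, horizontal lines are group means and bars are the SD. CLDN4 stood at 842 to 943 TPM in knockdown libraries, above 440 to 469 TPM in control libraries, while F11R and CLDN12 overlapped between groups.

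CLDN4 encodes claudin-4, which tightens epithelia and, with claudin-3, serves as a receptor for a Clostridium perfringens toxin. It stood at 943, 882 and 842 TPM in knockdown replicates 1 to 3, against 469, 440 and 440 TPM in negative control replicates 1 to 3. The groups lay far apart, and the lowest knockdown library was well above the highest control library. Means were 889 ± 50.8 TPM in knockdown and 450 ± 16.7 TPM in control libraries (SD, n = 3 each), a ratio of 1.98. In limma its log2 fold change was 0.98, with an SE of 0.05 and an adjusted p of 0.000229. On GRCh38 the gene (ENSG00000189143) spans 73799542 to 73832693 of chromosome 7, plus strand.

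CLDN7 encodes claudin-7, a basolateral claudin that binds the adhesion protein EpCAM. Its levels were 612, 572 and 552 TPM in knockdown libraries, against 422, 429 and 430 TPM in control libraries. Every knockdown library was higher than every control library, and the controls were tightly grouped. The mean was 579 ± 30.6 TPM in knockdown and 427 ± 4.42 TPM in control libraries (SD, n = 3 each), with a limma log2 fold change of 0.44 (SE 0.05, adjusted p = 0.00205). CLDN7 (ENSG00000181885, chromosome 17 at 7259903 to 7263983, minus strand) shares 38 exonic bases with ELP5 on the opposite strand. The sources used here do not say if reads were counted by strand. CLDN7 also shares 269 of its 2492 exonic bases with AC003688.1 on the same strand, a gene at 0.0 TPM in both group means.

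CLDN1 encodes claudin-1, whose loss in mice breaks the water barrier of the skin. It was measured at 117, 129 and 118 TPM in knockdown libraries and at 92.1, 94.0 and 89.2 TPM in control libraries. The groups did not overlap, and the shift was smaller than for CLDN4. Means were 121 ± 6.56 TPM in knockdown and 91.8 ± 2.41 TPM in control libraries (SD, n = 3 each; limma log2 fold change 0.40, SE 0.05, adjusted p = 0.00478). CLDN1 (ENSG00000163347) lies on chromosome 3 at 190305701 to 190322475, minus strand.

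CLDN3 and CLDN12 did not pass the test. CLDN3, whose protein also serves as a receptor for the toxin, was the lowest of the 9. It stood at 8.02, 7.91 and 8.48 TPM in knockdown libraries against 6.36, 5.93 and 7.76 TPM in control libraries. The groups did not overlap, yet the highest control library came close to the knockdown values. Its limma log2 fold change was 0.26, with a 95% confidence interval of 0.00 to 0.51 and an adjusted p of 0.163. CLDN3 (ENSG00000165215, chromosome 7 at 73768997 to 73770270, minus strand) is separated from the annotated span of CLDN4 by 29271 bases.

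CLDN12 encodes a claudin without the tail motif through which most claudins bind scaffold proteins. It stood at 58.2, 64.0 and 64.1 TPM in knockdown libraries against 58.1, 62.3 and 61.0 TPM in control libraries, and the groups overlapped. The limma log2 fold change was 0.04 (95% confidence interval −0.10 to 0.18, adjusted p = 0.713), so a rise of the size of CLDN4 lies outside its interval. Its sign turned under median ratio scaling, where the log2 fold change was −0.06. CLDN12 (ENSG00000157224, chromosome 7 at 90383721 to 90513402, plus strand) shares exonic bases with CDK14 and GTPBP10 on the same strand, 201 and 347 of its 6741. It also shares 276 with AC002456.2 and 371 with AC006153.1 on that strand, genes with group means of 0.0 to 0.0933 TPM.

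Among the other membrane proteins, OCLN rose and F11R did not pass the test. OCLN, for occludin, was measured at 19.0, 22.5 and 22.5 TPM in knockdown libraries and at 14.4, 15.5 and 12.4 TPM in control libraries. The groups did not overlap, and knockdown replicate 1 was nearest to the controls. Means were 21.3 ± 2.01 TPM in knockdown and 14.1 ± 1.61 TPM in control libraries (SD, n = 3 each; limma log2 fold change 0.57, SE 0.11, adjusted p = 0.0165). The call was lost in 4 of the 6 fits that each left out 1 library: with adjusted p = 0.0673 without knockdown replicate 2, 0.0608 without knockdown replicate 3, 0.0534 without negative control replicate 1 and 0.0511 without negative control replicate 3. OCLN (ENSG00000197822) lies on chromosome 5 at 69492292 to 69558104, plus strand, and has a partial copy, OCLNP1, that was listed at 0 TPM in all 6 libraries.

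F11R, for JAM-A, an adhesion protein of the immunoglobulin family, stood at 104, 111 and 116 TPM in knockdown libraries and at 111, 119 and 113 TPM in control libraries. The groups overlapped, with the lowest value in a knockdown library and the highest in a control library. Its limma log2 fold change was −0.05 (95% confidence interval −0.18 to 0.09, adjusted p = 0.616). F11R (ENSG00000158769, chromosome 1 at 160995211 to 161021348, minus strand) shares 1853 of its 5066 exonic bases with AL591806.3 on the same strand, a gene with means of 5.17 TPM in knockdown and 2.26 TPM in control libraries, so the counting may have split reads between them.

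Of the 2 proteins under the membrane, CGN rose and TJP1 did not pass the test. CGN, for cingulin, which links the junction to myosin, was measured at 41.7, 43.2 and 41.4 TPM in knockdown libraries and at 31.2, 26.5 and 26.1 TPM in control libraries. The knockdown libraries were close together and all above the controls. Means were 42.1 ± 0.964 TPM in knockdown and 27.9 ± 2.85 TPM in control libraries (SD, n = 3 each; limma log2 fold change 0.58, SE 0.08, adjusted p = 0.00509). CGN (ENSG00000143375) lies on chromosome 1 at 151510510 to 151538692, plus strand.

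TJP1, the scaffold that binds claudin tails, stood at 16.4, 21.1 and 20.5 TPM in knockdown libraries and at 16.4, 17.2 and 15.0 TPM in control libraries. Knockdown replicate 1 lay among the controls, and knockdown replicates 2 and 3 lay above all 3 controls. Its limma log2 fold change was 0.23 (95% confidence interval −0.03 to 0.49, adjusted p = 0.206). TJP1 (ENSG00000104067) lies on chromosome 15 at 29699367 to 29968865, minus strand.

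**Figure D2:**
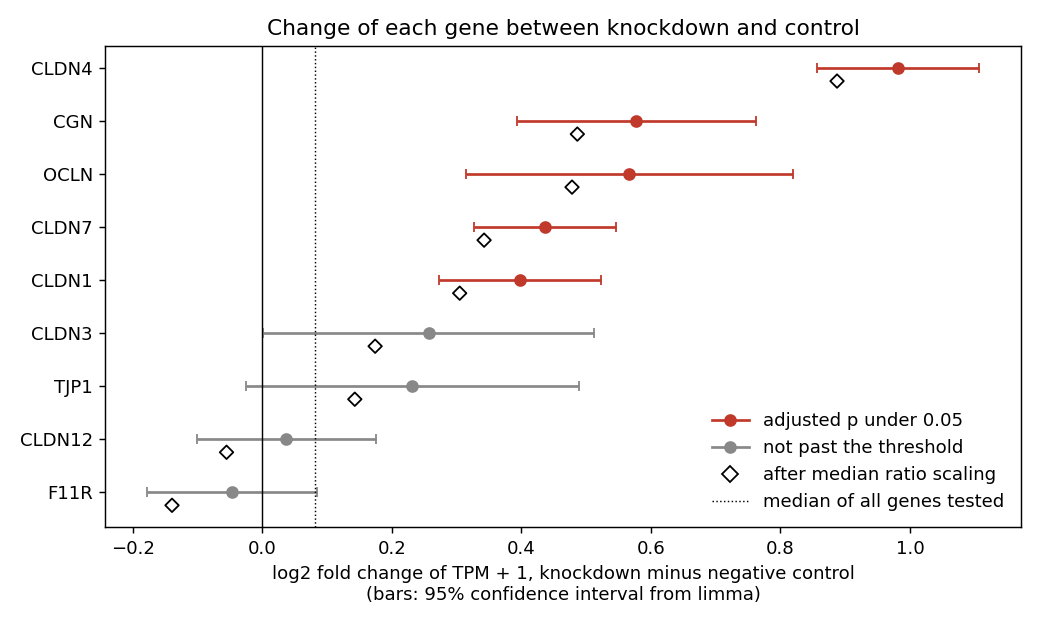
Log2 fold change of TPM + 1, knockdown minus negative control, for each gene, with its 95% confidence interval from limma. Filled points in red are past an adjusted p of 0.05, open diamonds give the value after median ratio scaling, and the dotted line is the median of all genes tested. CLDN4 stands apart at 0.98, and the sign of CLDN12 turns with the scaling.

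TPM values depend on the scaling of each library, and mitochondrial DNA genes held 7.20% to 7.40% of the total in knockdown libraries against 10.7% to 10.9% in control libraries. The split of calls over all genes moved with the scaling, with 1780 rises and 547 falls as deposited, 1012 and 996 under median ratio scaling, 1001 and 980 under quantile normalization, and 1072 and 820 once mitochondrial and ribosomal protein genes were removed and the rest rescaled. The same 5 tight junction genes were called as higher in all 3 of these fits. Their log2 fold changes after median ratio scaling were 0.89 for CLDN4, 0.49 for CGN, 0.48 for OCLN, 0.34 for CLDN7 and 0.30 for CLDN1.

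By level per length, CLDN4 and CLDN7 were the most abundant of the 9 in both groups. In knockdown libraries the order was CLDN4, CLDN7, CLDN1, F11R, CLDN12, CGN, OCLN, TJP1 and CLDN3. In control libraries F11R stood before CLDN1 and TJP1 before OCLN. The ranges of OCLN and TJP1 overlapped within each group, and those of the other neighbours in the order did not. As a ratio, the narrowest gaps were these: CLDN1 at its lowest and F11R at its highest were 117 and 116 TPM in knockdown libraries, and CLDN4 at its lowest and CLDN7 at its highest were 440 and 430 TPM in control libraries.

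The claudins taken as a sum were more abundant in knockdown cells, and more of the sum was CLDN4. Most of the difference in the sum lay in CLDN4 and CLDN7, and several claudins were not called. The table lists 24 claudins, of which 9 reached a mean of 1 TPM and 5 were at 0 in every library. The summed claudin level was 1753, 1670 and 1600 TPM in knockdown libraries and 1059, 1042 and 1041 TPM in control libraries, a ratio of the means of 1.6. The 5 claudins described here made up 98.8% to 99.2% of that sum in any library. CLDN4 contributed 53.8%, 52.8% and 52.6% of the sum in knockdown libraries and 44.3%, 42.2% and 42.3% in control libraries. The share of CLDN7 was 34.5 ± 0.340% in knockdown and 40.8 ± 0.798% in control libraries, and that of CLDN12 was 3.72 ± 0.358% in knockdown and 5.78 ± 0.258% in control libraries (SD, n = 3 each). Neither the sums nor these shares overlapped between the groups, and each had p = 0.1 in a two-sided exact permutation test, the smallest p that 3 against 3 libraries allow. Shares of the same sum are tied, so a larger share of CLDN4 lowers those of the others and these are not separate results. In TPM, CLDN7 was higher in knockdown libraries and CLDN12 overlapped between the groups.

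**Figure D3:**
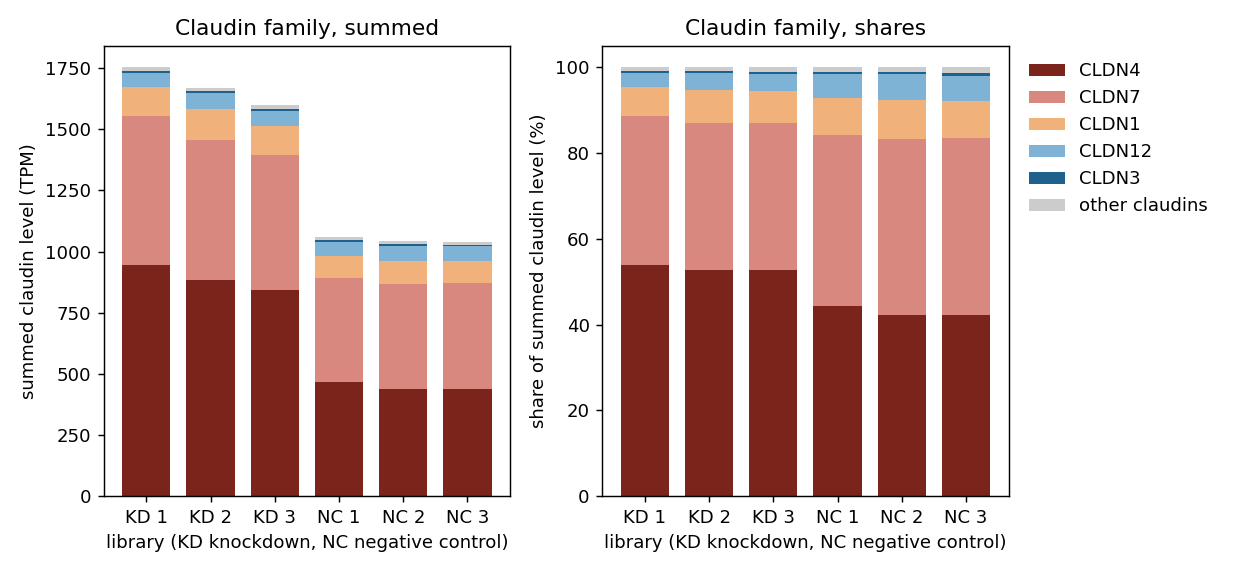
Left, summed level of all claudins in TPM in each library; right, the share of each claudin in that sum. Knockdown libraries (KD) stand left of negative control libraries (NC). The sum lies at 1600 to 1753 TPM in knockdown and 1041 to 1059 TPM in control libraries, and CLDN4 takes 52.6% to 53.8% against 42.2% to 44.3%.

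A ratio of 2 genes in the same library does not depend on the scaling. The log2 ratio of CLDN4 to CLDN7 was 0.62, 0.63 and 0.61 in knockdown libraries and 0.15, 0.04 and 0.03 in control libraries. CLDN4 thus gained on CLDN7 by 0.55 on the log2 scale, and the knockdown libraries were almost alike. The gain on the other 7 genes ran between 0.38 for OCLN and 1.03 for F11R, with 0.39 for CGN, 0.58 for CLDN1, 0.69 for CLDN3, 0.74 for TJP1 and 0.95 for CLDN12. In all 8 ratios the groups did not overlap (two-sided exact permutation p = 0.1 for each and 0.1 after Benjamini-Hochberg adjustment over the 8). The log2 ratio of CLDN7 to CLDN1 was 2.25 ± 0.118 in knockdown and 2.22 ± 0.0447 in control libraries (SD, n = 3 each), with overlapping groups and an exact permutation p of 0.8.

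**Figure D4:**
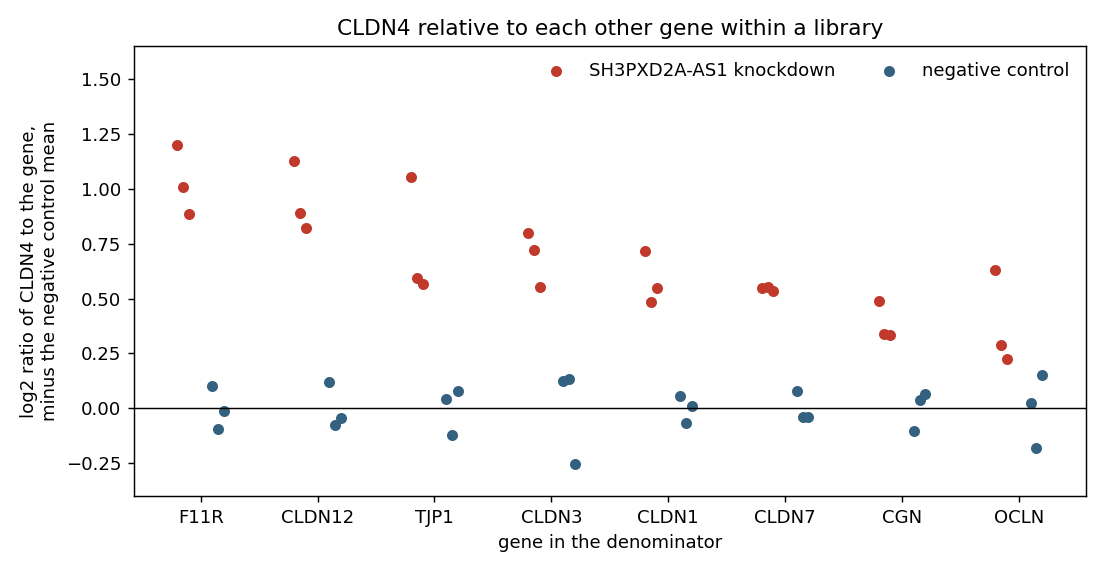
Log2 ratio of CLDN4 to each other gene within a library, set to 0 at the negative control mean, with knockdown libraries left of control libraries. All knockdown points lie above all control points for each gene, and the mean difference runs between 1.03 for F11R and 0.38 for OCLN.

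Other epithelial genes gave the setting for these changes. The epithelial markers EPCAM, CDH1, KRT7, KRT8, KRT18, KRT19, ESRP1 and GRHL2 were all expressed, with a summed level of 3720 to 3801 TPM in knockdown and 3357 to 3451 TPM in control libraries. CDH1 (limma log2 fold change 0.42, adjusted p = 0.00895), KRT7 (0.44, adjusted p = 0.00136), KRT19 (0.22, adjusted p = 0.0143) and EPCAM (0.24, adjusted p = 0.0364) rose, and the splicing regulator gene ESRP1 fell (−0.23, adjusted p = 0.0355). The calls of EPCAM and KRT19 were lost after median ratio scaling (adjusted p = 0.108 and 0.134). With 1 library left out, EPCAM was called in 1 of 6 limma fits, the one without knockdown replicate 1 (adjusted p = 0.0219, and 0.0678 to 0.115 in the others), and ESRP1 in 1 of 6, the one without knockdown replicate 2 (adjusted p = 0.0399, and 0.068 to 0.112 in the others). The call of KRT19 was lost without negative control replicate 2 or 3 (adjusted p = 0.0591 and 0.0531). KRT8, KRT18 and GRHL2 were not called, at log2 fold changes of 0.14, −0.04 and 0.10. Relative to EPCAM in the same library, CLDN4 was higher by 0.74 on the log2 scale in knockdown cells (2.51 ± 0.163 in knockdown and 1.77 ± 0.0787 in control libraries, SD, n = 3 each, exact permutation p = 0.1). By the same measure OCLN and CGN were each higher by 0.35, CLDN7 by 0.19 and CLDN1 by 0.15 without overlap. CLDN12 and F11R had differences of −0.21 and −0.29, also without overlap. Each ratio also carries the change of EPCAM, at a log2 fold change of 0.24. In TPM, CLDN12 and F11R overlapped between the groups, with log2 fold changes of 0.04 and −0.05. The ratios of CLDN3 and TJP1 to EPCAM overlapped between the groups.

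Most markers of other cell types were at or near 0, with CD68 and COL1A1 as exceptions. The endothelial list summed to 1.62 to 2.23 TPM in knockdown and 1.35 to 2.17 TPM in control libraries, most of it from CDH5. The leukocyte gene PTPRC was listed at 0 in all 6 libraries, and CD68, which many cell lines express, made up nearly all of the leukocyte sum of 56.3 to 60.4 TPM in knockdown and 36.7 to 42.2 TPM in control libraries. CD68 itself rose (limma log2 fold change 0.58, adjusted p = 0.00283). COL1A1 made up most of the fibroblast sum of 23.2 to 26.9 TPM in knockdown and 19.9 to 22.6 TPM in control libraries, and LUM was listed at 0. COL1A1 did not pass the test (log2 fold change 0.25, adjusted p = 0.102).

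The rest of the tight junction was followed under 72 partner gene symbols, of which 71 were found and 50 tested. Of those tested, 10 rose (20.0%) and 0 fell, against 11.3% of all genes tested that rose and 3.47% that fell. Of all genes with a mean of at least 50 TPM, 21.2% rose and 9.13% fell. The median log2 fold change of the 50 partner genes was 0.16, against 0.08 for all genes tested. After median ratio scaling 6 rose and 1 fell, and of all genes 6.42% rose and 6.32% fell. CLDN15, a channel-forming claudin of the intestine, averaged 9.04 ± 0.619 TPM in knockdown and 6.74 ± 0.185 TPM in control libraries (SD, n = 3 each; limma log2 fold change 0.37, adjusted p = 0.0273), and none of the 3 scalings kept that call. With 1 library left out it was called in 1 of 6 fits, the one without knockdown replicate 3 (adjusted p = 0.0479, and 0.0681 to 0.0935 in the others). CLDN9, CLDN16 and CLDN23 were tested at group means of 0.863 to 2.10 TPM and did not pass, and CLDN2, CLDN6, CLDN11 and CLDN20 lay under the filter at group means of 0.057 to 0.517 TPM. LSR, for angulin-1, which marks the corners where 3 cells meet, averaged 130 ± 9.57 TPM in knockdown and 99.6 ± 3.69 TPM in control libraries (limma log2 fold change 0.38, adjusted p = 0.0115).

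Genes of cell polarity and of the actin belt were among the other rises. CRB3, a small apical polarity protein, averaged 100.1 ± 7.50 TPM in knockdown and 72.5 ± 4.54 TPM in control libraries (SD, n = 3 each; limma log2 fold change 0.46, adjusted p = 0.00947), and LLGL2, a basolateral polarity gene, averaged 56.5 ± 2.91 TPM in knockdown and 43.1 ± 2.48 TPM in control libraries (log2 fold change 0.38, adjusted p = 0.011). No other of the 13 polarity genes tested was called, so the share that rose was 15.4%, near the 11.3% of all genes tested. Those linked to actin included ACTN4, an actin crosslinker (log2 fold change 0.61, adjusted p = 0.00101), MYL9, a myosin light chain (0.42, adjusted p = 0.00291), ARHGEF18, a guanine nucleotide exchange factor (0.41, adjusted p = 0.00736), and MYH9, a nonmuscle myosin heavy chain (0.28, adjusted p = 0.0173, with no call under any of the 3 scalings). The call of MYH9 was also lost without knockdown replicate 2 (adjusted p = 0.0657), negative control replicate 1 (0.0599) or negative control replicate 2 (0.0659). Of 10 scaffold genes tested 1 rose, also near the share of all genes, and their median log2 fold change was 0.07.

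Of 23 adherens junction and desmosome genes tested, 8 rose (34.8%) and 0 fell, against 11.3% and 3.47% of all genes tested, and the median log2 fold change was 0.13. After median ratio scaling 6 rose and 2 fell. The called genes with the smallest p included the plakophilin gene PKP3 (limma log2 fold change 0.44, adjusted p = 0.00229), plakoglobin, encoded by JUP (0.50, adjusted p = 0.00267), and the P-cadherin gene CDH3 (0.32, adjusted p = 0.00296). PPL and EVPL, which encode desmosomal plaque linkers, and NECTIN2, an adhesion gene, had log2 fold changes of 0.29, 0.42 and 0.36 (adjusted p = 0.0115, 0.0152 and 0.0155). The calls of PPL and NECTIN2 were lost after median ratio scaling (adjusted p = 0.0528 and 0.0602). NECTIN2 was not called without negative control replicate 1 or 2 (adjusted p = 0.057 and 0.0587), nor EVPL without negative control replicate 1 or 3 (0.0536 and 0.0618). The deposited tight junction pathway annotation is a broad term that also holds actin and tubulin genes. It includes 8 of the 9 tight junction genes, so rises among those 8 are counted again in it. Without them, 21 of its 134 genes tested rose (15.7%) and 3 fell (2.24%), with a median log2 fold change of 0.089. Of all genes tested, 11.3% rose and 3.47% fell. With the 8 included, the annotation had 26 rises (18.3%) and 3 falls (2.11%) among 142 genes tested. Its median log2 fold change of 0.10 was close to the 0.08 of all genes. After median ratio scaling it had 15 rises and 9 falls, where 6.42% of all genes rose and 6.32% fell.

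**Figure D5:**
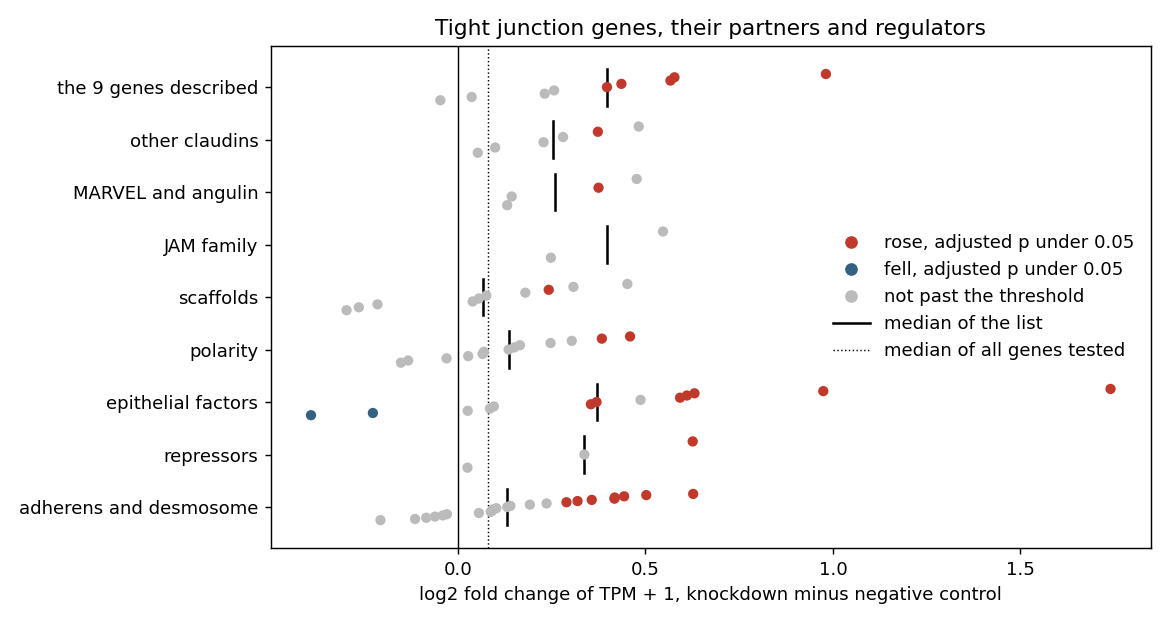
Log2 fold change of TPM + 1, knockdown minus negative control, of each tested gene in 9 of the lists, with the list's median as a bar and the median of all genes tested as a dotted line. Red points rose and blue points fell at an adjusted p under 0.05. The 9 tight junction genes have a median of 0.40 and the adherens junction and desmosome genes one of 0.13.

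A further list held epithelial factors, repressors, and genes for claudin binders, modifiers and turnover. Of its 31 genes tested, 13 rose (41.9%) and 2 fell (6.45%), against 11.3% and 3.47% of all genes tested. Of all genes with a mean of at least 50 TPM, 21.2% rose and 9.13% fell. The median log2 fold change of the 31 was 0.24. Epithelial transcription factor genes accounted for 7 of the rises. After median ratio scaling 11 genes of the list rose and 2 fell, and of all genes 6.42% rose and 6.32% fell. KLF4, a differentiation factor, averaged 44.4 ± 2.75 TPM in knockdown and 12.6 ± 0.265 TPM in control libraries (SD, n = 3 each; limma log2 fold change 1.74, adjusted p = 0.000111). GRHL3, a Grainyhead factor of barrier epithelia, averaged 15.2 ± 0.276 TPM in knockdown and 7.23 ± 0.315 TPM in control libraries (log2 fold change 0.97, adjusted p = 0.000538). KLF5 and ELF3, both epithelial factors, had log2 fold changes of 0.61 and 0.37 (adjusted p = 0.000613 and 0.00133). SNAI1, a repressor of cadherin and claudin genes, also rose, averaging 12.1 ± 0.349 TPM in knockdown and 7.49 ± 0.407 TPM in control libraries (log2 fold change 0.63, adjusted p = 0.00297). TP63, picked with its value known as 1 of the 2 that fell, had a log2 fold change of −0.39 (adjusted p = 0.0085), and the other was ESRP1, whose call was kept in 1 of the 6 fits with a library left out.

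Genes for proteins that cut junction components were also on the list. The matriptase gene ST14 and SPINT1, which encodes a matriptase inhibitor, rose, with limma log2 fold changes of 0.69 and 0.63 (adjusted p = 0.000541 and 0.00181).

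The genes whose profile over the 6 libraries lay nearest to that of each called gene were sought among 8545 tested genes with a mean of at least 10 TPM, by Euclidean distance of log2(TPM + 1) centred on each gene's mean. For CLDN4 these were ANGPTL4, a secreted lipase inhibitor, at a distance of 0.07, GRHL3 at 0.11 and PLAUR, the urokinase receptor gene, at 0.14. ANGPTL4 stood at 191, 184 and 168 TPM in knockdown libraries and at 99.1, 91.5 and 89.7 TPM in control libraries. Nearest to CLDN7 were ANKRD52, MAPK8IP3 and EFNB1 at 0.05 to 0.07, to CLDN1 PDIA3, HOTAIRM1 and PLK3 at 0.06 to 0.07, to CGN NUAK2, RHBDD3 and LPCAT4 at 0.07 to 0.10, and to OCLN TXNL4A, C9orf3 and LAMA3 at 0.14 to 0.15. With 6 libraries in 2 groups, these distances mostly compare the size of the change between groups.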

How the data were processed

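Per the labels' protocols, messenger RNA was captured on oligo(dT) beads, reverse transcribed from random hexamers and sequenced from both ends. The authors deposited 1 table of TPM values with a column for each of the 6 libraries; fastp, HISAT and RSEM are named in the submitters' processing notes, without versions. The same notes name the mouse build GRCm38.p5, while 58883 of the 60027 gene IDs are human Ensembl IDs, so positions came from GENCODE on GRCh38 by gene ID. Gene length in bases was deposited beside the TPM values and was not otherwise used. An empty line of the table was skipped. TPM keeps no depth, so no counting interval could be given and the precision is the spread between libraries. Each TPM column was matched to its sample by group and replicate number.

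The test was limma 3.58.1 in R 4.3.3, applied to log2(TPM + 1) for genes averaging 1 TPM or more, with a prior spread that depends on the mean, and genes were called at an adjusted p under 0.05. The pseudocount understates the change of low genes. The test was first checked on simulated data. Sums, shares and ratios within libraries were compared by exact permutation tests. Lists are described by counts and medians. The text names the 9 genes, SH3PXD2A-AS1, epithelial markers, claudins with a mean of at least 0.1 TPM, up to 8 called genes of each list with a mean of at least 5 TPM in the higher group, and the 3 nearest profiles of each called gene; some results that this rule would name are not reported here. The 9 genes and the lists were chosen with earlier results of these data known. Alternatives were other pseudocounts, filters, scalings, prior spreads and library weights, a replicate block, and leaving out each library.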

Additional observations from a re-analysis of the deposited data

How the results depend on the processing

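Across 9 alternative settings and 6 fits that each left out 1 library, CLDN4, CLDN7, CLDN1 and CGN kept their direction and their call, with log2 fold changes of 0.89 to 1.02, 0.34 to 0.47, 0.30 to 0.42 and 0.49 to 0.66. OCLN kept its direction in all of them and its call in the 9 settings, and leaving out a library gave 0.48 to 0.64 with adjusted p of 0.0223 to 0.0673. CLDN12 had its sign turned by median ratio scaling (−0.055), quantile normalization (−0.041) and removal of mitochondrial and ribosomal protein genes (−0.041). On the log2 scale, the middle value over all genes was 0.081 as deposited and −0.002, −0.014 and 0.013 in these fits, in that order. The cause of the value of 0.081 was not tested. The number of the 9 genes called was 4 to 5 with a library left out and 5 in every setting.

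Over all genes, 1475 were called without the filter and 1152 to 1633 with a library left out, against 2327 as reported. The replicate number as a block gave 1466 calls and the same count of 5 among the 9. Same-numbered libraries showed little shared deviation from their group means (r = 0.02, −0.01 and 0.04 for numbers 1 to 3). The labels do not say whether libraries with the same number were handled together. The cause of the lower counts was not tested.

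List counts were also recomputed, a choice made after seeing the data. The lists had 50 partner, 31 regulator, 23 adherens junction and desmosome and 142 pathway annotation genes tested as deposited. The last includes 8 of the 9 tight junction genes. Over all genes, 1780 rises and 547 falls were called as deposited. Median ratio scaling gave 1012 and 996, quantile normalization 1001 and 980, and removal of mitochondrial and ribosomal protein genes 1072 and 820. Leaving out a library gave 867 to 1267 rises and 246 to 366 falls. Partner genes had 6 rises in each of the 3 scalings and 1 fall after median ratio scaling, and 6 to 10 rises with a library left out. Regulators had 10 to 11 rises in the 3 scalings, and 10 to 12 rises and 1 to 2 falls with a library left out. Adherens junction and desmosome genes had 5 rises after quantile normalization and 5 to 8 with a library left out, and 2, 2 and 1 falls in the 3 scalings. The pathway annotation had 15, 15 and 16 rises and 9, 6 and 6 falls in the 3 scalings, and 14 to 22 rises with a library left out. Depth is unknown, so a limit of detection cannot be set for claudins listed at 0.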
